A study of Mus musculus with 16 samples.

Results

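Complex I is the first enzyme of the mitochondrial respiratory chain, and its nuclear subunit genes were followed here in the kidneys of young mice, old mice and old mice given an herbal formula. The genes were chosen by name: every gene symbol made of Nduf, then a, ab, b, c, s or v, then a number. That gave 38 genes of the 40879 symbols listed, and all 38 had enough counts to be tested. Assembly factors (Ndufaf genes) and pseudogenes were not among them.

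Complex I takes electrons from NADH and passes them through a flavin and a chain of iron-sulfur clusters to ubiquinone, and it pumps protons across the inner mitochondrial membrane. Its matrix arm holds the cofactors and its membrane arm the proton channels. The core of the membrane arm is encoded by the mitochondrial genome, while the core of the matrix arm and all accessory subunits are encoded in the nucleus. The kidney tubule, above all the proximal tubule, is rich in mitochondria and depends on oxidative phosphorylation for the transport of solutes. By role, 7 of the 38 genes encode core subunits, 10 accessory subunits of the matrix arm, 9 accessory subunits of the proximal membrane arm and 11 accessory subunits of the distal membrane arm. The remaining one, Ndufa4, carries a complex I name but its protein is now placed in complex IV.

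RNA of whole kidney from male, wild-type C57BL/6 mice was read by QuantSeq, which sequences the 3' ends of transcripts, in 16 libraries. Young (5 libraries) were 3-month-old mice serving as controls. Old (5 libraries) were aged mice without treatment, with an age at sampling not given in the sources used here. Old+YM (3 libraries) and Old+PM (3 libraries) were aged mice that received Yukmijihwang-tang (YM) or Palmijihwang-tang (PM), both traditional herbal formulas, as an oral dose of 100 mg/kg/day, for 5 days of each week, between 19 and 24 months of age. A 5-month acclimatization is stated for the 3 older groups, and 1 passage of the labels names YM where the Old+PM dose is meant. Neither a vehicle given to the untreated groups nor the formulas' composition is described in the labels. The labels do not tie each library to a mouse of its own, so p-values measure the spread between these libraries, which may in part be technical.

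Libraries held 8223008 to 10914515 counts, of which 15.0% to 27.7% fell on the mitochondrial genome. Summed proximal tubule markers reached 10723 to 16126 CPM (counts scaled to the library size, with TMM scaling factors), and no skeletal muscle marker was abundant enough to be tested. Libraries that stood apart were Old 5, Old 4, Old+PM 3 and Young 5. Old 5 had the highest macrophage marker sum of all (544 CPM) and the lowest proximal tubule sum. A clock-gene score was taken from 13 circadian genes, as the mean standardised log2 CPM of genes such as Per1 and Dbp minus that of genes such as Bmal1, which peak at the opposite time of day. Old 4 had a score of -1.73, inside the Young range of -2.78 to -1.21, while the other Old libraries had 1.56 to 2.33. Old+PM 3 and Young 5 are described with the 6 variable genes. In whole tissue, fewer cells of a type and less RNA per cell cannot be told apart.

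The promoters of several of these genes carry words bound by factors that are known to control respiratory genes, so 5 of them are shown here. RefSeq start sites were matched for 34 of the 38 genes, with 36 promoters, each taken from 250 bases before to 50 bases after the start and searched on both strands. The NRF1 word (GCGC, any base, then TGCGC), close to its own reverse complement so that 1 place can match on both strands, was in 8 of the 36 (22.2%) against 4.6% of 32851 promoters. The YY1 word AAGATGGCG was in 5 (13.9%, against 1.4%). The SP/KLF word GGGCGG was in 16 (44.4%, against 35.7%), the ETS word CCGGAAG in 4 (11.1%, against 8.86%) and the estrogen-related receptor word AAGGTCA in 3 (8.33%, against 4.72%). Promoters, not genes, were counted: the 2 promoters of Ndufa5 overlap and share 1 NRF1 and 1 SP/KLF place, counted in both. These counts are descriptions of the sequence, and a match is not evidence of binding. Shown are the 200 bases before the RefSeq start, 5' to 3' on the strand of the gene, for Ndufb4, Ndufa10 and Ndufb8, whose means were below Young in all older groups, for Ndufa11, which holds the NRF1 word, and for Ndufa4, whose level followed another pattern. Capitals mark a match to any of the words on either strand.
Ndufb4, GRCm38.p6 chr16:37654369-37654568, minus strand: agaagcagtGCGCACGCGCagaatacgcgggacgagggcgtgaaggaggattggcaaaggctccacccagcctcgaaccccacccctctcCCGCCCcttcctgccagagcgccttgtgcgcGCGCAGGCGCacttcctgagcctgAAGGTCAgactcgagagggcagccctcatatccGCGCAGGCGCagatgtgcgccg
Ndufa10, GRCm38.p6 chr1:92473759-92473958, minus strand: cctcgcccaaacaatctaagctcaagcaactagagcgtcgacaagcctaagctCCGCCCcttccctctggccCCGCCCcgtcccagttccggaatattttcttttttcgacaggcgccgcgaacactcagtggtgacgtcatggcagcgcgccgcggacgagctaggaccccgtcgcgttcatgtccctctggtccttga
Ndufb8, GRCm38.p6 chr19:44555443-44555642, minus strand: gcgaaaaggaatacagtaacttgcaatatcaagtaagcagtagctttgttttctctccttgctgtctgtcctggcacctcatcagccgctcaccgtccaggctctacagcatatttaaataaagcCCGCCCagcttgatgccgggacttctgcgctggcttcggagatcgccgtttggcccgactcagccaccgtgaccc
Ndufa11, GRCm38.p6 chr17:56717562-56717761, plus strand: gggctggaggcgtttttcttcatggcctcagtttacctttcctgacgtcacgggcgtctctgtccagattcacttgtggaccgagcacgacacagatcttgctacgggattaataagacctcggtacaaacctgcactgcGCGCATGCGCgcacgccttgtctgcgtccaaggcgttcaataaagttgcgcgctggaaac
Ndufa4, GRCm38.p6 chr6:11907451-11907650, minus strand: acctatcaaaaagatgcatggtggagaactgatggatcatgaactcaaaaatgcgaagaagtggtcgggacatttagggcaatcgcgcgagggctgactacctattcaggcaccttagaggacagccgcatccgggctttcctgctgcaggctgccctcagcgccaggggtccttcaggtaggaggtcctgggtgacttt
The Ndufb4 stretch holds 3 NRF1 matches, 1 SP/KLF match (written CCGCCC, its reverse complement) and 1 estrogen-related receptor match. Ndufa10 holds 2 SP/KLF matches and Ndufb8 holds 1. The Ndufa4 stretch holds none of the words.

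Transcripts of 13 of the 38 complex I genes fell in Old against Young kidneys, and none rose. The fold changes of those that fell ran from -0.26 on the log2 scale for Ndufb10 to -0.74 for Ndufb4, whose level fell by 40%. The test was edgeR's quasi-likelihood test, with Benjamini-Hochberg adjustment over all 14665 genes tested and a threshold of 0.05. Of all genes tested, 7.13% fell and 6.47% rose. At an unadjusted p under 0.05, 23 of the 38 were lower, against 14.1% of all genes. Without regard to the threshold, 35 of the 38 log2 fold changes were below 0, against 47.4% of all genes, and their median was -0.26 against 0.02 for all genes tested. By role, 2 of 7 core, 2 of 10 matrix arm, 4 of 9 proximal and 5 of 11 distal membrane arm genes fell. In 10 of the 38 genes every Old library lay below every Young library, which held for 4.97% of all genes.

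Summed over the 38 genes, the 5 Young libraries gave 13216, 12873, 12429, 13557 and 12839 CPM, and the 5 Old libraries 10439, 11046, 10806, 11373 and 9058 CPM. The groups did not overlap, and Old 5 was the lowest library of all. Old 5 also had the lowest Old value for 30 of the 38 genes, and Old 4 the highest for 20. By role, and with no test, the sums were 1814 ± 105 CPM in Young and 1469 ± 153 in Old for the core genes, 3876 ± 301 and 3213 ± 405 for the matrix arm accessory genes, 3145 ± 117 and 2515 ± 183 for the proximal arm, and 3936 ± 158 and 3132 ± 275 for the distal arm (SD, n = 5 each).

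**Figure D1:**
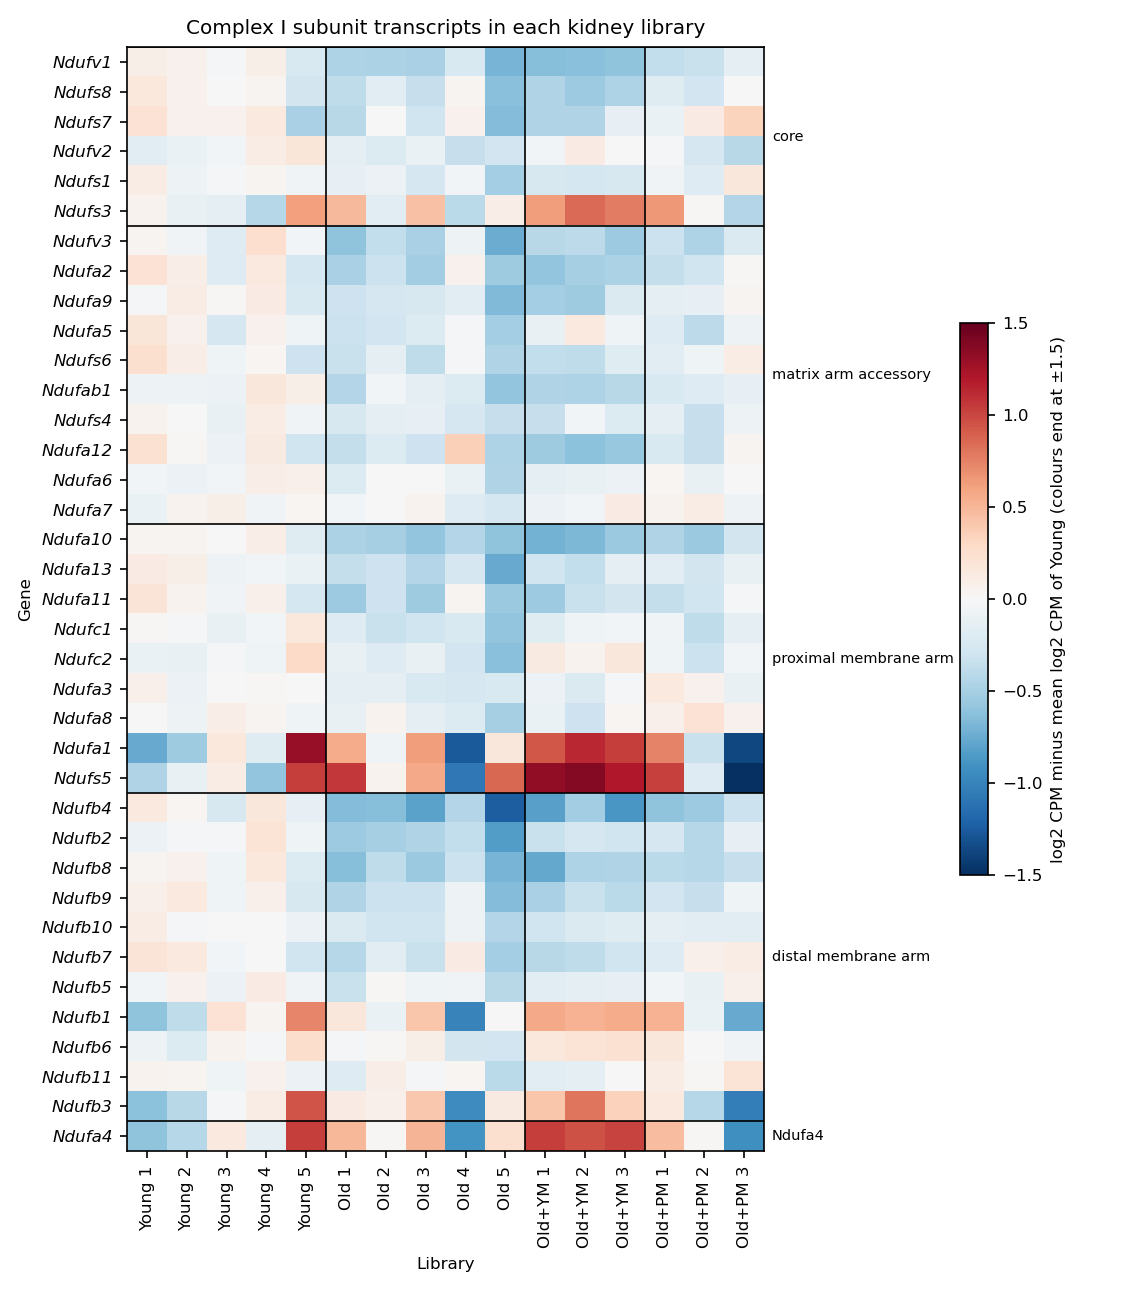
Level of 37 of the genes (vertical axis, grouped by role) in each of the 16 libraries (horizontal axis), as log2 CPM minus the mean log2 CPM of Young; blue is below and red above Young, and colours end at ±1.5. Most genes are blue in the Old and Old+YM columns, Old 5 is the darkest blue column of its group for most genes, and 6 genes (Ndufs3, Ndufa1, Ndufs5, Ndufb1, Ndufb3 and Ndufa4) vary from library to library, with Old 4 and Old+PM 3 low.

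The core subunits form the electron path of the matrix arm. Ndufv1, which binds NADH and the flavin, gave 492, 485, 455, 492 and 394 CPM in Young and 334, 333, 331, 394 and 284 CPM in Old. The highest Old library (Old 4) lay just under the lowest Young library (Young 5), both 394 CPM after rounding, and the fall was 0.47 on the log2 scale (SE 0.097, adjusted p = 0.00339).

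The core genes described next did not pass the test. Ndufs8, an iron-sulfur subunit, gave 231, 216, 206, 213 and 171 CPM in Young and 158, 185, 163, 213 and 134 CPM in Old (log2 fold change -0.28, SE 0.114). Ndufs7, which holds the last iron-sulfur cluster before ubiquinone, gave 276, 247, 248, 262 and 169 CPM in Young and 178, 238, 193, 247 and 151 CPM in Old (-0.26, SE 0.145). In both, Young 5 lay well under the other Young libraries and Old 4 was the highest Old library. Ndufs1, the largest core subunit and the carrier of several clusters, gave 248, 217, 226, 236 and 222 CPM in Young and 211, 216, 192, 224 and 161 CPM in Old (-0.19, SE 0.099). Ndufv2, the partner of Ndufv1 with a cluster of its own, gave 252, 265, 276, 305 and 322 CPM in Young and 256, 246, 263, 223 and 232 CPM in Old (-0.22, SE 0.097). The groups overlapped in all of these. Ndufs3 gave 48.0, 42.6, 42.0, 34.4 and 70.5 CPM in Young and 64.7, 41.3, 62.5, 34.7 and 49.3 CPM in Old. It had the widest spread of the core genes (log2 fold change 0.09, SE 0.221).

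Around the core of the matrix arm sit accessory subunits that stabilise it. Ndufv3, an accessory subunit of the NADH-binding module, gave 568, 532, 482, 657 and 536 CPM in Young and 364, 428, 394, 523 and 330 CPM in Old. Old 4 alone reached the Young range, and the fall was 0.45 (SE 0.115, adjusted p = 0.0140). Ndufa9, which lies near the ubiquinone site and binds a nucleotide cofactor, gave 225, 245, 230, 247 and 195 CPM in Young and 183, 191, 193, 203 and 144 CPM in Old (-0.32, SE 0.105, adjusted p = 0.0457). Only Young 5 and Old 4 overlapped. Ndufa2, a subunit with a thioredoxin-like fold, gave 919, 850, 690, 875 and 661 CPM in Young and 565, 633, 550, 829 and 546 CPM in Old (-0.36, SE 0.126, adjusted p = 0.0655). It did not pass, with Old 4 inside the Young range. The other 7 genes of this group (Ndufs4, Ndufs6, Ndufa5, Ndufa6, Ndufa7, Ndufa12 and Ndufab1) had log2 fold changes from -0.27 to -0.09 and did not pass.

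The accessory subunits of the proximal membrane arm surround the part that joins the arms. Ndufa10, a relative of the deoxynucleoside kinases (chromosome 1, 92439010 to 92473860, minus strand, GRCm38), had the smallest p of all 38 genes. It gave 671, 676, 659, 700 and 575 CPM in Young and 471, 464, 436, 484 and 431 CPM in Old. The lowest Young library stood above the highest Old library, and the fall was 0.52 (SE 0.087, adjusted p = 0.000807). Ndufa13, a subunit also known for a role in cell death (chromosome 8, 69894180 to 69902558, minus strand), gave 597, 583, 520, 530 and 512 CPM in Young and 427, 443, 405, 460 and 325 CPM in Old. These groups did not overlap either, with a fall of 0.41 (SE 0.098, adjusted p = 0.00848). Ndufc1, a small membrane-spanning subunit, gave 382, 370, 350, 367 and 422 CPM in Young and 330, 300, 307, 321 and 250 CPM in Old (fall of 0.33, SE 0.096, adjusted p = 0.0277), again without overlap. Ndufa11, a subunit with several membrane-spanning helices, gave 379, 342, 318, 349 and 275 CPM in Young and 226, 267, 228, 340 and 224 CPM in Old (fall of 0.37, SE 0.122, adjusted p = 0.0463). Old 4 lay among the Young libraries for this gene. The other 5 of the group (Ndufa1, Ndufa3, Ndufa8, Ndufc2 and Ndufs5) had log2 fold changes from -0.26 to 0.35, and none passed.

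In the distal membrane arm 5 of 11 genes fell, beside 4 of 9 in the proximal arm. Ndufb4, a small subunit of this arm (chromosome 16, 37647170 to 37654453, minus strand), gave 186, 172, 143, 190 and 155 CPM in Young and 107, 108, 96.8, 124 and 71.5 CPM in Old. Every Old library lay below every Young one, and the fall of 0.74 (SE 0.128, adjusted p = 0.00101) was the largest of the 38. Its pseudogene Ndufb4c is listed under a symbol of its own, with the treatment of reads from close copies not given in the sources used here. Pseudogenes named by a gene's own symbol followed by b, c or -ps are also annotated for Ndufa11 (Ndufa11b), Ndufab1 (Ndufab1-ps) and Ndufs6 (Ndufs6b). Pseudogenes under other names were not searched. Ndufb2 (chromosome 6, 39592574 to 39603382, plus strand) gave 252, 263, 265, 310 and 258 CPM in Young and 185, 190, 196, 209 and 151 CPM in Old (fall of 0.53, SE 0.098, adjusted p = 0.00137). The groups did not overlap. Its last exon is overlapped by Braf on the other strand, and without a stated strand setting reads of the 2 genes cannot be told apart. Ndufb8, a subunit often used on blots as a gauge of assembled complex I (chromosome 19, 44548572 to 44555440, minus strand), gave 1146, 1156, 1064, 1239 and 964 CPM in Young and 715, 851, 753, 888 and 683 CPM in Old (fall of 0.52, SE 0.101, adjusted p = 0.00215). These groups also stood apart. Ndufb9, a subunit of the LYR protein family, fell by 0.36 (adjusted p = 0.0310) and Ndufb10 by 0.26 (adjusted p = 0.0437), with libraries that overlapped in both, at 449 to 668 CPM in Old and 597 to 780 in Young for Ndufb9, and at 143 to 184 CPM in Old and 183 to 209 in Young for Ndufb10. The other 6 distal genes (Ndufb1, Ndufb3, Ndufb5, Ndufb6, Ndufb7 and Ndufb11) had log2 fold changes from -0.26 to -0.08 and did not pass.

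**Figure D2:**
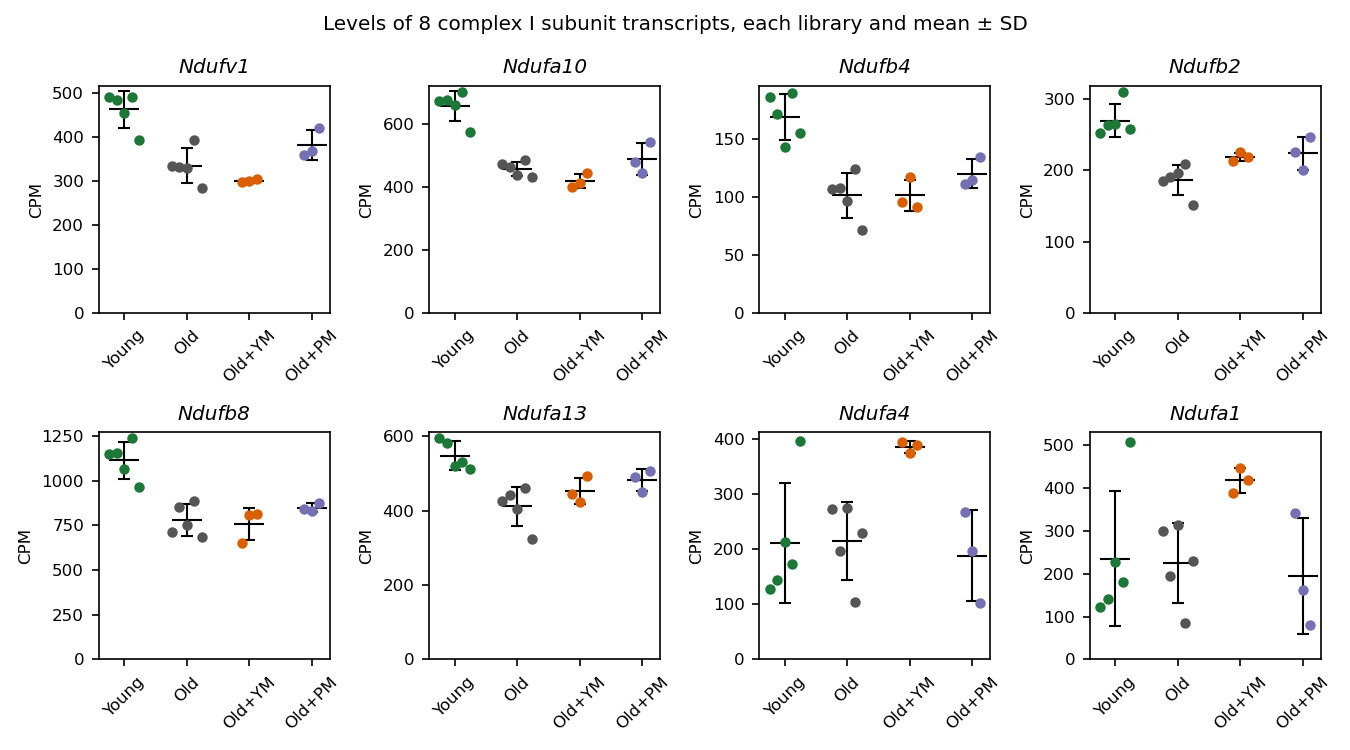
CPM of 8 genes (vertical axis, starting at 0) in the 4 groups (horizontal axis); points are libraries, the wide bar is the mean and the error bar ± SD. Ndufa10, Ndufb4, Ndufb2, Ndufb8 and Ndufa13 show Young above Old with no overlap, Ndufv1 does so with Young 5 and Old 4 side by side at 394 CPM, while Ndufa4 and Ndufa1 spread widely within Young, Old and Old+PM and sit high in all 3 Old+YM libraries.

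The remaining gene, Ndufa4, gave 127, 144, 213, 174 and 396 CPM in Young and 272, 196, 274, 104 and 229 CPM in Old (log2 fold change 0.03, SE 0.347). In Old+YM it gave 395, 374 and 389 CPM, and in Old+PM 267, 196 and 102 CPM. All 3 Old+YM libraries lay above every Old and Old+PM library, but not above Young 5.

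Ndufa4 was 1 of 6 genes whose libraries spread within their groups by an SD above 0.3 on the log2 CPM scale, a limit set after seeing the values. The others were Ndufs5 (SD 0.89), Ndufa1 (0.77), Ndufb3 (0.53), Ndufb1 (0.50) and Ndufs3 (0.39), with 0.58 for Ndufa4. Just under the limit stood Ndufs7 (0.26). The other 32 had a median SD of 0.145, and the median over all tested genes was 0.308, with 51.5% of genes above 0.3. Each of the 32 thus varied less than the middle tested gene, and each of the 6 more.

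In Young, Old and Old+PM some libraries were extreme for all 6 genes, and in Old+YM none was. Young 5 was the highest Young library, Old 4 the lowest Old library, Old+PM 1 the highest and Old+PM 3 the lowest of Old+PM for each of the 6 genes. Their summed level was 529, 599, 854, 764 and 1629 CPM in Young, 1032, 794, 1125, 406 and 892 in Old, 1356, 1494 and 1367 in Old+YM, and 1119, 693 and 400 in Old+PM. The sums overlapped between Young, Old and Old+PM, and in Old+YM they were tight. Ndufs5, the least abundant by CPM and so the least precise of the 38, gave 4.65, 5.89, 6.88, 4.21 and 13 CPM in Young and 13.2, 6.60, 9.39, 3.02 and 11.5 in Old. Several genes were shifted the other way in these libraries: Ndufs7 was at 169 CPM in Young 5 and 298 CPM in Old+PM 3, and Ndufa12 at 234 CPM in Young 5 and 368 CPM in Old 4. For the 37 genes with an annotated transcript, transcript GC content was set against the slope of a gene's within-group deviations on the GC trend of the libraries. As a description, the Pearson r was 0.481 and the Spearman rho 0.636. The deviations and the GC trend come from the same 16 libraries. The part of GC-related library differences in the levels of the 6 genes was not tested.

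**Figure D3:**
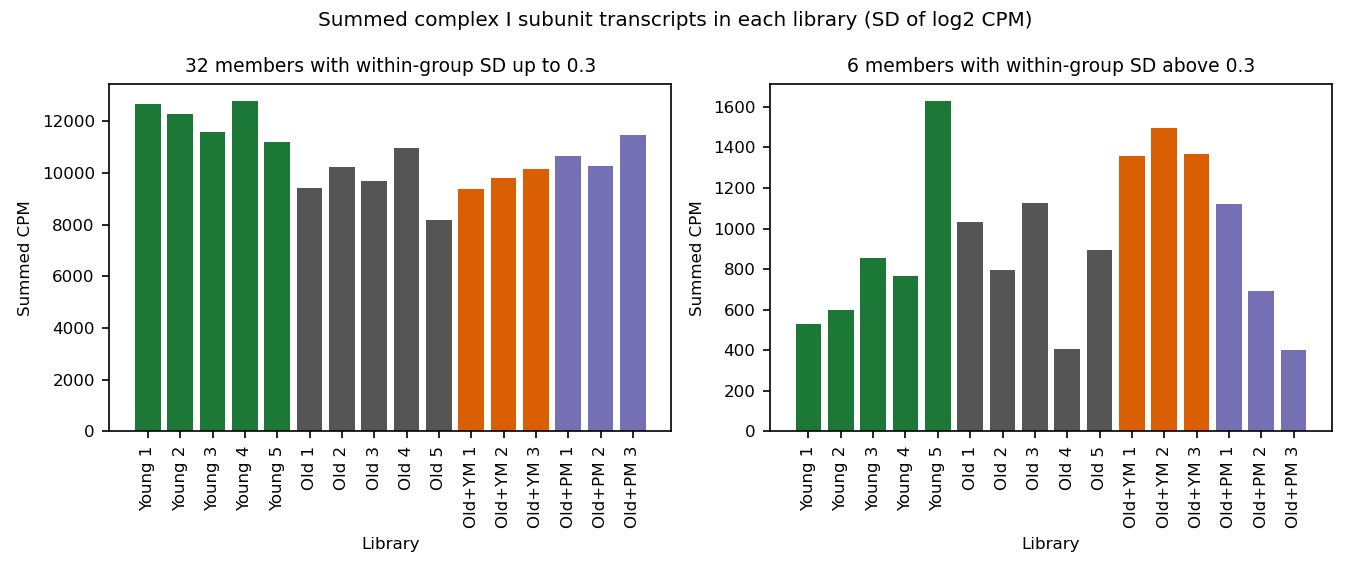
Summed CPM per library (vertical axis, from 0) of the 32 genes with a within-group SD up to 0.3 (left) and of the 6 genes above it (right), with libraries on the horizontal axis coloured by group. On the left every Young bar (11211 to 12793 CPM) is above every Old bar (8166 to 10967 CPM), and on the right Young 5 and the 3 Old+YM libraries are the tallest.

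Leaving out libraries moved how many genes passed. Of the 13 genes, Ndufa10, Ndufa13, Ndufb2, Ndufb4, Ndufb8 and Ndufv1 passed in each of the 10 fits that left out 1 Young or Old library. Ndufv3 passed in 9, Ndufc1 and Ndufb9 in 3, Ndufa9 and Ndufa11 in 2 and Ndufb10 in 1. The count was 19 without Old 4, 8 without Old 5, and 7, 8, 7 and 6 without Young 1, 2, 3 and 4 in turn. It was 8 without Old 2. Calls over all genes moved with these counts, from 1995 with all libraries to 2655 without Old 4, 1208 without Old 5, and 1236 to 1398 without Young 1, 2, 3 or 4. With the clock-gene score as a covariate no gene passed in edgeR and 9 had an unadjusted p under 0.05, with 391 calls over all genes, a median log2 fold change of -0.23 and a median SE of 0.155 in place of 0.104. Clock score and age group largely coincide in these libraries and cannot be told apart.

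Cell type markers moved beside these falls. Of 8 macrophage markers, 6 rose in Old. Csf1r, the most abundant of the 8 in Young, went the other way, from a mean of 73.2 to 52.5 CPM, and did not pass. The sum of the 8 was 107 to 134 CPM in Young and 102 to 544 in Old, with 102 to 194 in Old without Old 5. No library had 0 counts for any of the 8. Of 6 tested B, plasma and T cell markers, 3 rose (sum 4.53 to 16.9 CPM in Young, 121 to 189 in Old). Of 12 proximal tubule markers, 3 fell (Slc7a13, Slc27a2 and Slc22a6) and 2 rose (Slc22a8 and Slc5a12), and their sum was 13725 to 16126 CPM in Young and 10723 to 14347 in Old. Of 5 podocyte markers Podxl rose, and their sum was 173 to 194 CPM in Young and 205 to 242 in Old. Of 4 distal convoluted tubule markers Calb1 and Pvalb fell and Slc12a3 rose (sum 756 to 875 and 824 to 921 CPM). Of 6 endothelial markers Flt1 rose and Ehd3 fell (398 to 492 and 414 to 483 CPM), and of 8 fibroblast and smooth muscle markers Col1a1 rose (164 to 214 and 164 to 454 CPM). No marker of the thick ascending limb, collecting duct or adipocyte lists passed. The part of cell makeup in the complex I levels was not tested.

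In Old+YM against Old no complex I gene passed the edgeR test, where 0.0205% of all genes did. Without adjustment, a p under 0.05 was reached by 6 genes with higher and 1 with lower levels, against 9.48% of all genes in either direction. Those 7 were 1 without Old+YM 2, 2 without Old+YM 3 and 13 with the clock score, and DESeq2 and limma-voom also passed none. How the share of all genes under that p moved in these fits was not counted. The median log2 fold change was 0.02, against -0.03 for all genes. Ndufc2, a proximal arm subunit, gave 340, 323 and 349 CPM in Old+YM and 287, 271, 287, 255 and 201 CPM in Old (log2 fold change 0.37, SE 0.125, adjusted p = 0.341 in edgeR). Ndufb6, a distal arm subunit whose last exon is overlapped by Smim27 on the other strand, gave 246, 253 and 258 CPM in Old+YM and 216, 222, 233, 182 and 180 CPM in Old (0.29, SE 0.117, adjusted p = 0.456). Both sets stood apart from Old but did not pass over all genes. Ndufa12, a small subunit related to an assembly factor, gave 199, 187 and 194 CPM in Old+YM and 224, 248, 231, 368 and 208 CPM in Old (-0.40, SE 0.161, adjusted p = 0.450). In 10 genes every Old+YM library was above every Old library (5.15% of all genes), and in 1, Ndufa12, below (3.95%). The 10 included all of the 6 variable genes except Ndufb3. The 6 variable genes had log2 fold changes from 0.51 to 0.89 here, with SE up to 0.537. Of the other 32, 15 were above 0 and 17 below, with a median of -0.007.

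Old+PM against Old likewise had no complex I gene past the threshold in edgeR, DESeq2 or limma-voom, and 0.00% of all genes passed in edgeR. Of the 38 log2 fold changes, 32 were above 0 and 6 below, with a median of 0.125 against -0.02 for all genes. Of all genes, 53.8% were below 0. The GC slope of each library, in log2 CPM per 10% of transcript GC, was 0.034 to 0.131 in Old+PM and -0.109 to 0.059 in Old. With this slope as a covariate 12 of the 38 were below 0, with a median of 0.095 and a median SE of 0.134 in place of 0.119. Every other setting run gave 3 to 7 below 0. The part of the GC slope in these levels was not tested. In the main fit an unadjusted p under 0.05 was found for 6 genes, all higher (2.65% of all genes). That number was 3 without Old 5 or without Old+PM 3, 13 without Old 4, and 1 in a fit of the Old and Old+PM libraries alone. How the share of all genes moved in these fits was not counted. Ndufa8, a cysteine-rich subunit facing the intermembrane space, gave 338, 372 and 337 CPM against 298, 334, 290, 278 and 228 CPM in Old (0.29, 95% interval 0.05 to 0.53, adjusted p = 0.790). Ndufa3, whose last exon is overlapped by Tfpt on the other strand, gave 391, 371 and 327 CPM against 320, 322, 302, 297 and 301 CPM in Old (0.24, 95% interval 0.04 to 0.43, adjusted p = 0.790). In 4 genes all Old+PM libraries lay above all Old ones (1.92% of all genes). For Ndufa10 the 95% interval was -0.11 to 0.30, so a p that missed the threshold does not show equal levels.

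Between the formulas, which the study gave at 1 dose and schedule, the smallest p-values belonged to matrix arm genes that were higher in Old+PM. None was past the threshold (0.00% of all genes passed in edgeR). Ndufv1 gave 297, 300 and 305 CPM in Old+YM and 359, 368 and 422 CPM in Old+PM (log2 fold change of Old+PM against Old+YM 0.35, 95% interval 0.09 to 0.61, adjusted p = 0.292 in edgeR). Ndufa9 gave 160, 157 and 196 CPM in Old+YM and 208, 209 and 235 CPM in Old+PM (0.35, 95% interval 0.07 to 0.63, adjusted p = 0.313). In both genes the libraries of the formulas did not overlap, but neither these nor any of the 38 passed. None of the 38 passed in edgeR, DESeq2 or limma-voom, while calls over all genes were 59 in DESeq2 and 4 in limma-voom. In edgeR 7 of the 38 were higher and 3 lower at an unadjusted p under 0.05, against 12.8% of all genes. Old+PM lay wholly above Old+YM in 17 genes and wholly below in 6, where each held for 11.9% of all genes. The 6 variable genes were all below 0 (log2 fold changes from -1.25 to -0.57), and 27 of the other 32 were above 0, while 48.5% of all genes were below 0. These counts depended on single libraries. The 10 genes at an unadjusted p under 0.05 were 0 without Old+PM 3, 1 without Old+YM 2 and 2 without Old+YM 1. They were 6 without Old+YM 3, 8 without Old+PM 2 and 14 without Old+PM 1. Other methods gave 13 in DESeq2 and 13 in limma-voom, and the clock score gave 16. As a covariate, the GC slope of each library left 0, and a score of 20 other genes that follow the 6 variable ones left 2. The share of all genes under that p was not counted in these fits, so these moves cannot be called particular to the 38 genes. The median SE of the 38 was 0.134 with all libraries and 0.151 without Old+PM 3. The median log2 fold change of 0.134 was 0.071 without Old+PM 3, 0.043 with the GC slope and 0.016 with that score. The score's genes were picked for following the 6 variable genes within the groups of these same libraries. The score itself was 1 to 1.16 in Old+YM and -1.91 to 0.6 in Old+PM, so moves under it are partly set by that choice.

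Both treated groups were also set against Young, which shares the Young libraries with the comparison of Old and Young. In Old+YM 12 of the 38 genes fell and none rose, against 9.63% of all genes that fell and 6.42% that rose. In Old+PM 2 fell and none rose, against 3.64% that fell and 2.93% that rose. The medians of the 38 were -0.24 in Old+YM and -0.16 in Old+PM. With the clock score they were -0.128 and -0.062, and that of Old+PM was -0.088 with upper quartile scaling, -0.091 without Young 5 and -0.093 without Old+PM 2. The difference in the count between the 2 groups is not itself a test, and the direct test of Old+PM against Old+YM passed none of the 38. Ndufa10 gave 399, 412 and 444 CPM in Old+YM and 478, 445 and 543 CPM in Old+PM, all below the Young minimum of 575 CPM. Its fall from Young was 0.65 in Old+YM and 0.43 in Old+PM (adjusted p = 0.0157), beside 0.52 in Old. Ndufb8 gave 651, 805 and 815 CPM in Old+YM and 841, 828 and 875 CPM in Old+PM, and fell by 0.56 and 0.39 (adjusted p = 0.0490 in Old+PM). For Ndufb4 the levels were 95.7, 117 and 91.6 CPM in Old+YM and 111, 115 and 135 CPM in Old+PM, a fall of 0.74 in Old+YM and a log2 fold change of -0.49 in Old+PM that did not pass (adjusted p = 0.0516). Ndufv1 fell by 0.63 in Old+YM. Further falls in Old+YM were Ndufa12 (0.58), Ndufa2 (0.53), Ndufs8 (0.49), Ndufv3 (0.46), Ndufab1 (0.45), the mitochondrial acyl carrier protein, Ndufa9 (0.42) and Ndufb9 (0.41). Ndufa2 shares its last exon region with Tmco6 on the other strand. The count in Old+YM was 4 without Young 4, Old+YM 1 or Old+YM 2. That in Old+PM was 0 without Young 4, Old+PM 1 or Old+PM 2. Calls over all genes in Old+YM went from 2354 to 1393, 1060 and 1314 in those fits in turn. For Old+PM they went from 963 to 496, 516 and 197.

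**Figure D4:**
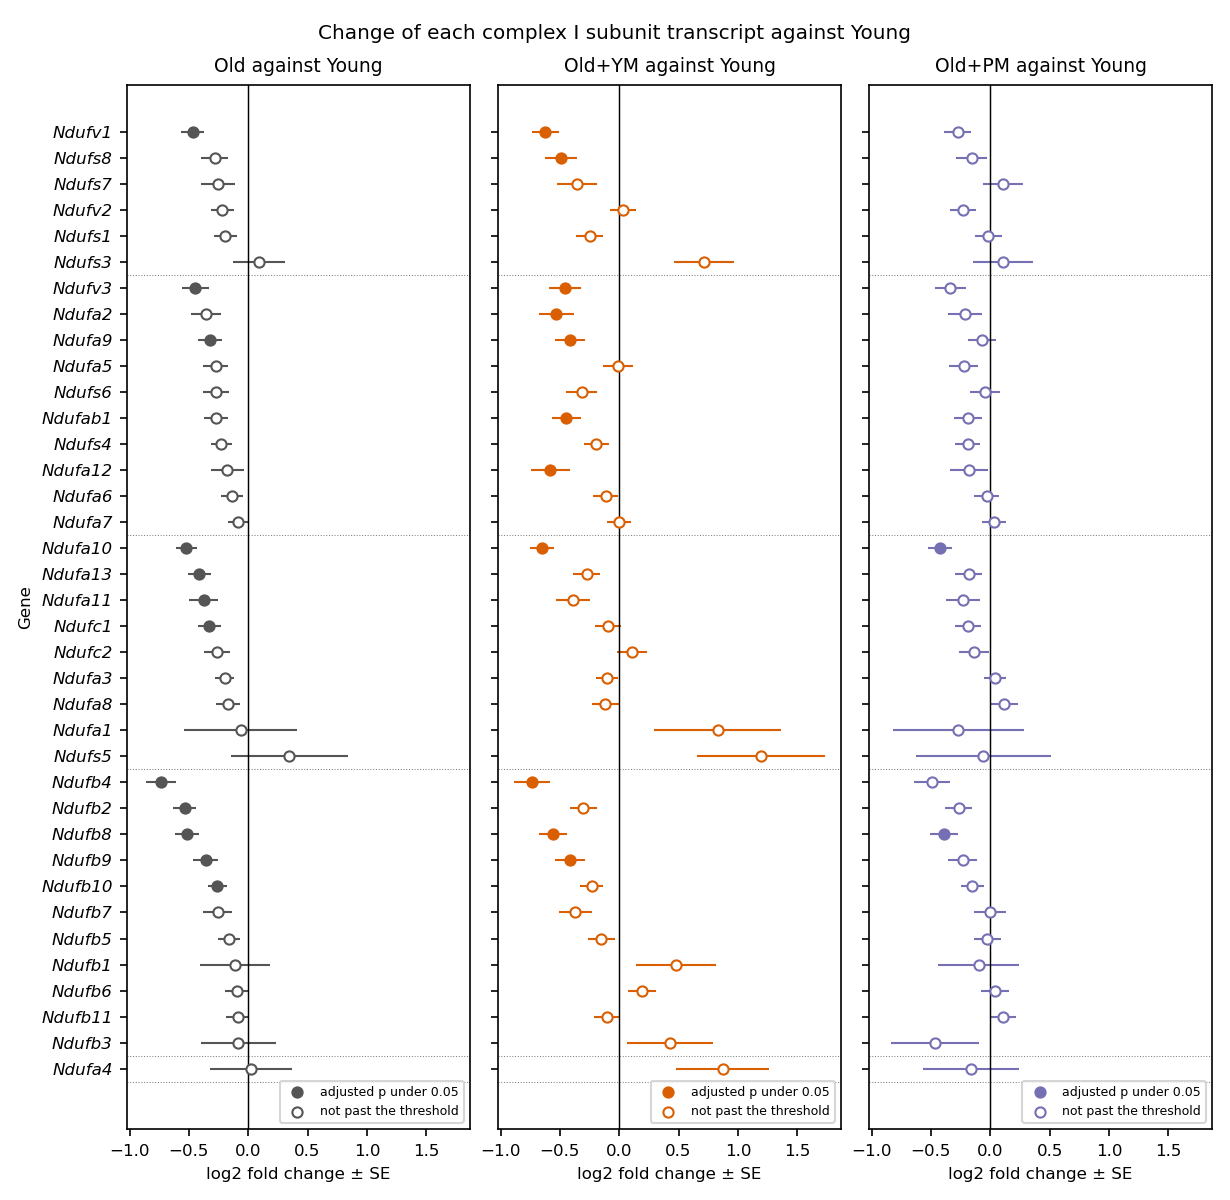
Log2 fold change against Young (horizontal axis, ± SE) of 37 of the genes (vertical axis, grouped by role) in Old, Old+YM and Old+PM, all against the same 5 Young libraries; filled points passed an adjusted p of 0.05. Filled points number 12, 11 and 2 and all lie left of 0, and the widest bars belong to the 6 variable genes.

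The same question was asked of genes that build complex I or work beside it, in Old against Young. Of 19 assembly factors tested, 4 fell, none rose and all 19 had log2 fold changes below 0 (median -0.25). Ndufaf8 had 114 ± 9.17 CPM in Young and 80.1 ± 12.5 in Old (fall of 0.50, adjusted p = 0.00518), Ndufaf4 72.3 ± 4.51 and 52.9 ± 9.10 (0.45, adjusted p = 0.0168) and Ndufaf2 29.6 ± 3.70 and 22.2 ± 2.39 (0.42, adjusted p = 0.0297), with SD and n = 5. Ecsit, an assembly factor also known from innate signalling, fell by 0.55 (adjusted p = 0.0429). Of 6 tested complex I genes of the mitochondrial genome, ND5 fell by 0.53 (3830 ± 1007 to 2646 ± 313 CPM, adjusted p = 0.0435). ND3 rose by 3.60 on the log2 scale, from 0.890 ± 1.23 to 10 ± 5.84 CPM (adjusted p = 0.0121), where 1 CPM is about 8 counts.

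Falls were found in the other respiratory complexes as well, with no nuclear subunit gene on the lists rising. Of 9 nuclear complex III genes 5 fell and none rose (median -0.37), among them Uqcrq (0.43, adjusted p = 0.00256) and Cyc1, cytochrome c1 (0.46, adjusted p = 0.00404). Of 12 nuclear complex IV genes 3 fell (median -0.13), with Cox6c the first by p (0.40, adjusted p = 0.00899). Of 14 ATP synthase genes 4 fell (median -0.22), with Atp5c1 the first by p (0.34, adjusted p = 0.0115). Of 4 complex II genes Sdhb fell (0.53, adjusted p = 0.0133). Of 12 regulators of mitochondrial genes none fell and 1 rose. That was Ppara, a receptor that drives fatty acid oxidation genes, which went from 152 ± 7.99 to 205 ± 37.2 CPM (log2 fold change 0.43, adjusted p = 0.0127). Nrf1, whose word was searched in the promoters, had 14.8 ± 1.44 CPM in Young and 14.4 ± 1.55 CPM in Old (-0.04, SE 0.168). Ppargc1a, a coactivator of mitochondrial genes, had 89.1 ± 9.01 and 105 ± 11.6 CPM (0.235, SE 0.097, adjusted p = 0.115).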

How the data were processed

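Per the labels, kidney RNA was made into QuantSeq libraries, and per the submitters' processing notes Bowtie2, bedtools and the mm10 build were used. The deposited values are raw counts, whole numbers for each gene symbol in 16 libraries. Tool versions, annotation, strand setting and multiple alignments: not given in the sources used here. Counts were analysed with edgeR 4.0.16 in R 4.3.3: filterByExpr (minimum count 10, smallest group 3) kept 14665 of 40879 symbols, sizes were scaled by TMM, and 1 robust quasi-likelihood fit of all 16 libraries gave 6 two-sided comparisons, adjusted by Benjamini-Hochberg over all 14665 genes at 0.05. Values are CPM on TMM-scaled sizes; intervals are 95% intervals of the fit. The lowest count of a complex I gene in any library was 12 and the highest 11483, so counting error was small for all but Ndufs5. The test was tried on simulated data. Gene loci are those of GENCODE M21 (GRCm38), in which 37 of the 38 genes were found by symbol, and promoters those of RefSeq GRCm38.p6.

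The genes, lists and tests were chosen with earlier results of these data known. Values in every library are given for the core genes, the 3 genes with the smallest p of Old against Young in each other role, Ndufa4 and the 3 genes with the smallest p in each other comparison. Ndufa11, Ndufa1 and Ndufs5 were added after their values were seen. The values of 1 gene, which enters all counts and sums, are not reported here. Alternatives were other scalings, no filter, DESeq2 1.42.0, limma-voom (limma 3.58.1), fewer samples, a replicate block and a clock-gene score. Added after seeing the data were a score of 20 genes that follow the variable subunits and the GC slope of each library. The 20 genes were picked from these same libraries, so counts under their score are partly set by that choice.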

Additional observations from a re-analysis of the deposited data

Results flagged for a closer look

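In the Young and Old groups of 5, 37 of the genes were each checked for a single library far from the other 4 (76 checks with the summed levels, of which chance marks about 1 in 20), and 4 were marked. Ndufb2 was at 310 CPM in Young 4 against 252 to 265 in the other Young libraries. Ndufc2 was at 380 CPM in Young 5 against 287 to 308, and Ndufs7 at 169 CPM in Young 5 against 247 to 276. Ndufb3 was at 121 CPM in Old 4 against 245 to 307.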

How the results depend on the processing

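The number of complex I genes past the threshold in Old against Young was 13; it was 8 with upper quartile scaling, 7 with the Young and Old libraries alone, 0 with the clock score, 23 with the score of variable genes and 6 to 19 on leaving out 1 library. In Old+YM against Young it was 12, with 1 under the clock score and 5 under the score of variable genes. It was 22 under the GC slope (6 higher) and 4 to 13 on leaving out 1 library (2 of the 13 higher). Upper quartile scaling gave 10, DESeq2 13 and limma-voom 13, with 1 higher in each, and the Old+YM and Young libraries alone gave 17 (2 higher). In Old+PM against Young it was 2, with 1 under RLE factors, upper quartile scaling, mitochondria-free library sizes or the clock score, 9 under the score of variable genes, 9 under the GC slope (2 higher) and 0 to 2 on leaving out 1 library. Calls over all genes moved as well. In Old against Young 1995 became 1862, 1387, 391 and 3217 under the first 4 settings given for it. In Old+YM against Young 2354 became 287, 1382, 3517, 2221, 2820, 2465 and 3057. In Old+PM against Young 963 became 937, 924, 916, 678, 2305 and 1430. On leaving out 1 library these calls were 1208 to 2655, 1060 to 3215 and 197 to 927 in the 3 comparisons in turn. The cause was not tested. In the 3 comparisons without Young, every setting run gave 0. Without Old 4 and Old+PM 3 together the counts against Young were 19, 17 (2 higher) and 3, with 3072, 3293 and 1365 calls over all genes.

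Upper quartile scaling moved the median of all genes in Old against Young from 0.02 to 0.07. Among named genes, directions reversed under the clock score for Ndufs3 (-0.48), Ndufs7 (0.14), Ndufs8 (0.026), Ndufa2 (0.031), Ndufa4 (-1.05), Ndufa12 (0.30) and Ndufa11 (0.038). On leaving out 1 library some reversed for Ndufa4 (range -0.115 to 0.407), Ndufs3 (-0.015 to 0.301) and Ndufb6 (-0.151 to 0.002). Apart from leave-one-out fits, of the named genes' values 505 kept direction and side, 56 lost and 20 gained the threshold.

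With the replicate block the counts against Young were 14 in Old, 15 in Old+YM (1 higher) and 3 in Old+PM, and 0 in the others. Calls over all genes against Young were then 2104, 2507 and 964. The samples share only a number: deviations of same-numbered Old and Young libraries correlated at -0.06 to 0.13, and 1 of 5 correlated best with its own number.

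Depth limits Ndufs5, the gene with the lowest counts. The treated groups have 3 libraries each, and the part of group size in their counts was not tested.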

Other observations

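The tested genes outside complex I whose log2 CPM over the 16 libraries was most like the mean standardised level of the 38 were Mdh1 (Pearson r 0.972), Cox6a1 (0.964), Prdx5 (0.953), Serpinf2 (0.936), Mtmr2 (0.935), Smdt1 (0.933), Phyh (0.931), Atpif1 (0.929), Pbld2 (0.927) and Ciapin1 (0.924). These correlations are descriptions over libraries that share depth, group and any batch. Mdh1 is the cytosolic malate dehydrogenase, Prdx5 a peroxiredoxin found in mitochondria and Smdt1 a part of the mitochondrial calcium uniporter. Phyh is a peroxisomal enzyme of phytanic acid breakdown. The mean level they were matched to itself separates Young from Old, so how these genes differ between Young and Old is largely set by the choice and is not given as a result.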
